A study of Mus musculus with 18 samples.

Results

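Nodal signalling was followed in the developing mouse heart through 7 genes, taken from 49315 gene identifiers by their symbols: the co-receptor gene Tdgf1 (also called Cripto), the transcription factor gene Foxh1, the ligand gene Nodal, the antagonist genes Lefty1 and Lefty2, and the type II receptor genes Acvr2a and Acvr2b. The 7 were chosen with their stage values in these libraries already known, so those values and the changes between stages are given as a description, without a test. RNA came from dissected hearts of wild-type C57BL/6 embryos at embryonic day 9.5 (E9.5, 3 libraries), E10.5 (4), E12.5 (4), E14.5 (3) and E16.5 (4), with males and females pooled and no treatment named. The labels do not say how many hearts a library holds or whether replicates came from separate litters, so the spread between libraries may be partly technical. The left and right sides of the heart were not separated.

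Nodal is a secreted ligand of the TGF-beta superfamily. It signals through the type II receptors ACVR2A and ACVR2B and the type I receptor ALK4 (gene Acvr1b), and it needs a membrane co-receptor of the EGF-CFC family, CRIPTO (gene Tdgf1) or CRYPTIC (gene Cfc1). The receptors phosphorylate SMAD2 and SMAD3, which bind DNA with SMAD4 and FOXH1 and switch on Nodal itself and the Lefty genes. LEFTY1 and LEFTY2 are secreted antagonists that limit the signal. In the early embryo the left lateral plate mesoderm carries this signal, which sets the direction of heart looping, while activins and other relatives share its receptors in many later tissues.

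Library totals ran from 30744015 to 45646538 counts, so that 3 counts, the limit that a count of 0 allows, equal 0.0657 to 0.0976 CPM, the usual unit of counts scaled to the library total. Intervals and limits of this kind cover counting error only. Levels of genes are in CPM after TMM scaling, and levels compared between genes are per kilobase of merged exon (RPKM). Cardiomyocyte genes (6 markers) summed to 14270 to 27510 CPM of plain library totals in every library. The libraries fell into a pair of sets that the labels do not name. In E9.5 replicates 2 and 3, E10.5 replicates 1 and 2 and E12.5 replicate 4, 8 macrophage-type transcripts summed to 0.5816 to 2.754 CPM, and in the other 13 libraries they summed to 340.8 to 688.5 CPM. These are called the low and the high set, and for the members that passed the filter on low counts the comparison of E10.5 with E9.5 is given within each. E9.5 replicate 2 also carried liver and yolk sac transcripts (4 markers, 54.28 CPM, against 0.728 and 1.195 CPM in the other E9.5 libraries).

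All 7 genes are protein coding in GENCODE M21 on GRCm38. Tdgf1 (ENSMUSG00000032494) lies on the minus strand of chromosome 9 from 110939603 to 110946158 and Acvr2b (ENSMUSG00000061393) on the plus strand of the same chromosome from 119402118 to 119434995. Foxh1 (ENSMUSG00000033837) spans 76668225 to 76669948 on the minus strand of chromosome 15. Nodal (ENSMUSG00000037171) spans 61417972 to 61425338 on the plus strand of chromosome 10, and Acvr2a (ENSMUSG00000052155) spans 48814109 to 48903269 on the plus strand of chromosome 2. Lefty2 (ENSMUSG00000066652, 180893108 to 180899103) and Lefty1 (ENSMUSG00000038793, 180935022 to 180938400) are neighbours on the plus strand of chromosome 1, with 35918 bases between them. Their longest transcripts were 91.9% identical over 1153 aligned bases, and 17.9% of the 50-base windows of Lefty1 were also present in Lefty2, so reads from those windows could not be assigned to 1 of them. Acvr2a and Acvr2b shared no such window. The Tdgf1 pseudogene Tdgf1-ps1 shares a part of the windows of Tdgf1 (98.8% identity over 512 aligned bases), and it received 0 or 1 count in each library.

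The promoters of Tdgf1 and Acvr2a are shown because they belong to a member that fell from E9.5 on and to one that stayed nearly level. Each line gives the 250 bases before the RefSeq transcript start on GRCm38.p6, and capitals mark matches, on either strand, to AATNNACA (a loose form of the sequence that FOXH1 recognises) and to CAGAC (the SMAD box).
Tdgf1 (chr9:110946159-110946408, minus strand): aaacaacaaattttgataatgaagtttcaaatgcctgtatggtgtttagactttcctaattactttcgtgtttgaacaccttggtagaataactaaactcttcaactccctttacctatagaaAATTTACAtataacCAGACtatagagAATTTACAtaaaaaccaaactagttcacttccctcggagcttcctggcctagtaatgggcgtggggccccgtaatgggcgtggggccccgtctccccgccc
Acvr2a (chr2:48813859-48814108, plus strand): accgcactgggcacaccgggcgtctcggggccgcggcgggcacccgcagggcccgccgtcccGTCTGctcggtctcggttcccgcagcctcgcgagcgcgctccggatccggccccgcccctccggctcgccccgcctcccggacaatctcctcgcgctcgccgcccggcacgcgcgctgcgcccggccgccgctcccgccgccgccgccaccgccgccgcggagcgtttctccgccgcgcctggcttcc
The Tdgf1 window holds AATTTACA at 127 to 120 and again at 101 to 94 bases before the start, with CAGAC between them at 113 to 109. Neither copy is one of the strict forms AATAAACA, AATACACA, AATCAACA and AATCCACA. Over 32851 mouse promoters of the same length, 10.9% held AATNNACA, 42.2% held CAGAC and 3.93% held a strict form. The windows also differ in composition: Tdgf1 has 42.0% G and C with 7 CpG dinucleotides, and Acvr2a has 82% with 49, against a median over all promoters of 52.4% and 6. The RefSeq table also held the promoters of Nodal (53.2% G and C, 3 CpG, no match to either motif) and Acvr2b (72.8%, 24 CpG, CAGAC on the opposite strand at 233 to 229 bases before the start). A match is only a description of these letters.

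Tdgf1 encodes the membrane-anchored co-receptor that lets Nodal engage its receptors, and its RNA was abundant at E9.5, lower at E10.5 and near the detection limit from E12.5 on. At E9.5 its level was 23.4, 22.5 and 48.7 CPM in replicates 1 to 3 (mean 31.5 ± 14.9, SD, n = 3). At E10.5 it was 2.21, 2.02, 4.35 and 2.67 CPM (2.81 ± 1.06, n = 4). The E9.5 and E10.5 ranges did not overlap, and the means differed 11.2-fold. At E12.5 the 4 libraries had 3, 6, 8 and 1 counts, or 0.0822, 0.162, 0.182 and 0.0264 CPM (0.113 ± 0.0720). At E14.5 the counts were 5, 0 and 0, and at E16.5 they were 3, 0, 1 and 9. Pooled over a stage, the level was 0.0441 CPM at E14.5 (exact Poisson 95% interval 0.0143 to 0.103) and 0.0976 CPM at E16.5 (0.0520 to 0.167), so an order between these 2 stages was not detectable at this depth.

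The log2 fold change of Tdgf1, E10.5 minus E9.5, was -3.49 ± 0.46 (SE), the 15th lowest of 18885 genes tested. Within the low set it was -4.04 and within the high set, which has 1 library at E9.5, it was -2.73. From E10.5 to E12.5 it was -4.57 ± 0.61, the 7th lowest. Across the whole series, E16.5 minus E9.5, it was -8.22 ± 0.64, the 5th lowest. Leaving out any 1 library moved this last value between -9.46 and -7.76.

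FOXH1 is the DNA-binding partner of the activated SMADs, and its gene had a similar course. At E9.5 Foxh1 was at 22.4, 25.04 and 48.03 CPM (31.8 ± 14.1, n = 3), again highest in replicate 3. At E10.5 it was at 3.18, 3.56, 5.35 and 4.88 CPM (4.24 ± 1.04, n = 4), with the high-set libraries, replicates 3 and 4, above the low-set ones. The 2 stages did not overlap, and the means differed 7.502-fold. Counts at E12.5 were 6, 3, 12 and 5 (0.162 ± 0.0809 CPM), at E14.5 they were 1, 9 and 4 (0.117 ± 0.0891 CPM), and at E16.5 they were 2, 2, 1 and 3 (0.0630 ± 0.0274 CPM). Unlike Tdgf1, Foxh1 had at least 1 count in each of the 18 libraries.

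For Foxh1 the log2 fold change, E10.5 minus E9.5, was -2.91 ± 0.29, the 23rd lowest, with -3.41 within the low set and -2.13 within the high set. E12.5 minus E10.5 gave -4.65 ± 0.38 (6th lowest), and E16.5 minus E9.5 gave -8.91 ± 0.45, the 2nd lowest of all genes tested. After E12.5 its changes were small against their errors, -0.49 ± 0.60 and -0.87 ± 0.75. The ratio of Tdgf1 to Foxh1 per kilobase was 0.513 ± 0.0400 (n = 3) at E9.5 and 0.341 ± 0.0639 (n = 4) at E10.5, with ranges of 0.467 to 0.543 and 0.286 to 0.423 that did not overlap. Later ratios rest on a few counts and are not given.

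**Figure D1:**
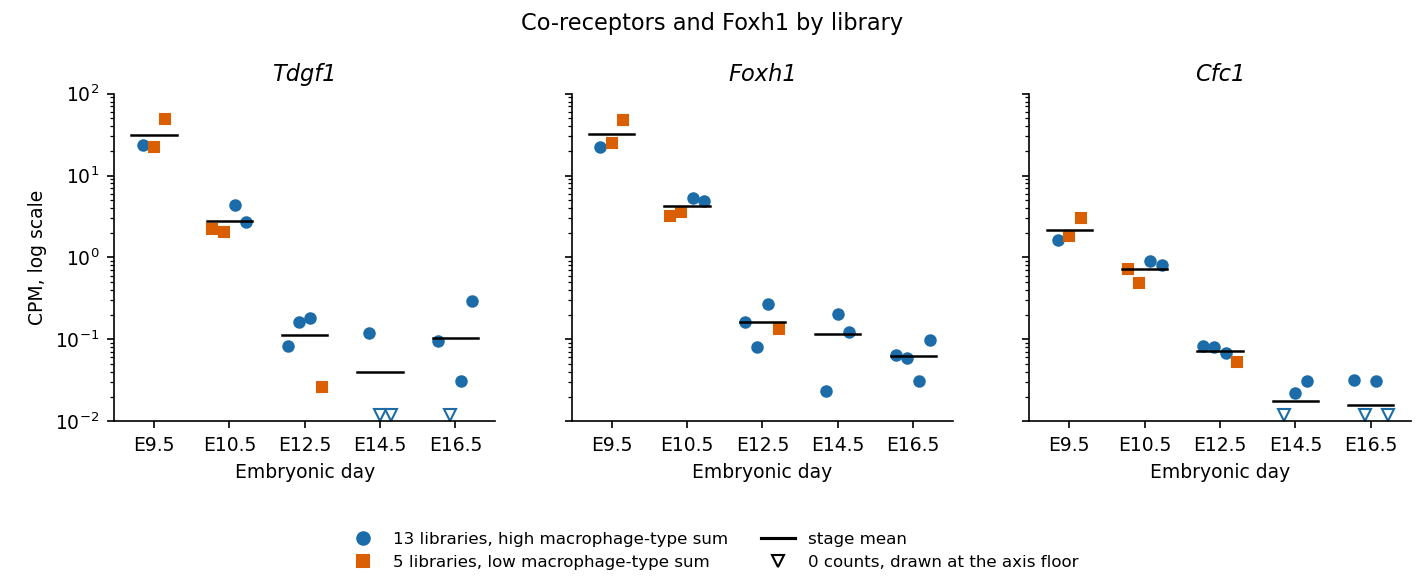
Level of Tdgf1, Foxh1 and Cfc1 in CPM (log axis) in each of the 18 libraries by embryonic day; circles are the 13 libraries with a high and squares the 5 with a low sum of macrophage-type transcripts, lines are stage means, and open triangles are libraries with 0 counts, drawn at the axis floor. All 3 genes are highest at E9.5 and lie below 0.3 CPM in every library from E12.5 on.

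Cfc1 encodes CRYPTIC, the other EGF-CFC co-receptor, and is not one of the 7 genes. It and the other listed genes were tested, but all lists were chosen with earlier results of these data known. Their adjusted p-values are therefore a description, not independent evidence. Cfc1 fell with Tdgf1 but from a lower level. Its counts were 54, 57 and 90 at E9.5, 33, 20, 34 and 31 at E10.5, between 2 and 3 at E12.5 and 0 or 1 in each later library. The mean went from 2.16 CPM at E9.5 to 0.731 at E10.5 (log2 fold change -1.56 ± 0.32, adjusted p = 0.00196) and 0.0710 at E12.5 (-3.30 ± 0.41, adjusted p = 3.98e-06), by edgeR's quasi-likelihood test with Benjamini-Hochberg adjustment over all genes. Within the high set the first of these changes was -0.92 and did not pass the test. Because Tdgf1 dropped further between E9.5 and E10.5, the ratio of Cfc1 to Tdgf1 per kilobase went from 0.179 ± 0.0265 (n = 3) to 0.680 ± 0.143 (n = 4). The exons of Cfc1 overlap the opposite-strand gene Prss40 over 27.79% of their length, and the strand setting of the counting is not given in the sources used here, so its level is uncertain.

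Markers of other cell types also differed in level between these stages. Genes of the second heart field, the progenitors that add to the poles of the looping heart (7 markers, among them Isl1, Fgf8, Fgf10 and Hoxb1), summed to 24.69, 28.34 and 38.4 CPM of plain library totals in the 3 E9.5 libraries and to 11.2 to 14.79 CPM at E10.5. They summed to 7.415 to 8.223 CPM at E12.5 and to 3.899 to 5.425 CPM at E16.5. The sum was mostly Isl1, Fgf8 and Fgf10, and not all members followed it. Six2 had 0.0323 to 0.1938 CPM at E9.5, 0.1939 to 0.290 CPM at E10.5 and 0.369 to 0.4795 CPM at E16.5. Tbx1 had 0.455 to 0.969 CPM at E9.5, 0.194 to 0.379 CPM at E10.5 and 0.604 to 1.44 CPM at E16.5. No gene of the 7 on this list was at 0 throughout a stage. E9.5 replicate 3, which had the highest Tdgf1, Foxh1 and Cfc1, also had the highest sum of this list, with 227 counts of Fgf8 against 131 and 160 and 27 of Hoxb1 against 13 and 22. The same library had the lowest sum of 5 epicardial markers (76.61 CPM, against 141.4 and 147.9), which stood at 388.5 to 455.1 CPM at E10.5. It also had the lowest sum of 4 neural markers (5.781 CPM, against 41.1 in the high-set library and 18.68). The neural sum differed between the library sets at E10.5 too, with 18.7 and 16.8 CPM in the low set and 42.88 and 48.52 CPM in the high set. Pharyngeal endoderm and foregut markers (7 genes) summed to 62 to 71.44 CPM at E9.5 and to 41.07 to 47.98 CPM at E10.5, and were at 53.28 to 68.07 CPM at E12.5. Nearly all of this sum was Krt19, at 56.64 to 70.28 CPM at E9.5. The part of these populations in the fall of Tdgf1 and Foxh1 was not tested. In whole hearts, fewer cells of a type and less RNA per cell cannot be told apart.

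Tdgf1 and Foxh1 are also known from pluripotent cells. The 7 pluripotency and germ cell markers summed to 0.3875 to 0.8493 CPM at E9.5 and to 0.8991 to 1.539 CPM at E16.5. That sum was nearly all Nanog, with 511 counts over the 18 libraries, and the other 6 markers had 1 to 16 counts each. Pou5f1, the defining pluripotency factor, had 4 counts over all 18 libraries, and 2 of the 7 markers were at 0 in all E9.5 libraries.

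Nodal itself was close to the limit of detection at every stage. It did not pass the filter on low counts, and its 79 counts over all libraries make it the rarest of the 7. The counts were 6, 3 and 12 at E9.5, 7, 0, 0 and 4 at E10.5, 1, 2, 0 and 0 at E12.5, 5, 2 and 5 at E14.5, and 9, 7, 9 and 7 at E16.5. Pooled over a stage, the level was 0.221 CPM at E9.5 (exact Poisson 95% interval 0.137 to 0.338), 0.0192 at E12.5 (0.00396 to 0.0561) and 0.240 at E16.5 (0.164 to 0.339). The E12.5 interval lay below those of E9.5 and E16.5, which overlapped each other almost fully. At E16.5 each of the 4 libraries had more counts than any library of E12.5 or E14.5. In a fit without the filter, the log2 fold change was 2.22 ± 1.003 for E14.5 minus E12.5 and 0.20 ± 0.70 for E16.5 minus E9.5.

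Lefty1, an antagonist that binds Nodal and its co-receptor, was low throughout but went the opposite way to Tdgf1 and Foxh1. Its counts were 12, 19 and 11 at E9.5, 26, 20, 29 and 26 at E10.5, 24, 25, 59 and 39 at E12.5, 44, 44 and 34 at E14.5, and 39, 42, 50 and 49 at E16.5. Stage means were 0.448 ± 0.146, 0.626 ± 0.125, 0.925 ± 0.324, 1.03 ± 0.0392 and 1.41 ± 0.186 CPM in that order. Neighbouring stages overlapped except E14.5 and E16.5, and all 4 E16.5 libraries, at 1.25 to 1.60 CPM, lay above all 3 E9.5 libraries, at 0.362 to 0.616 CPM. E16.5 minus E9.5 was 1.65 ± 0.30 on the log2 scale, and 1.95 within the high set. E10.5 minus E9.5 was 0.13 within the low set and 0.999 within the high set. E12.5 replicate 3 had 1.34 CPM, above the 3 E14.5 libraries, while replicates 1 and 2 of that stage were at 0.658 and 0.676 CPM.

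Lefty2, the paralogue that in the embryo marks the left lateral plate, was highest at E10.5. Counts were 1, 10 and 13 at E9.5, 29, 19, 14 and 31 at E10.5, 7, 9, 15 and 11 at E12.5, 14, 8 and 5 at E14.5, and 3, 11, 9 and 8 at E16.5. The mean was 0.570 ± 0.197 CPM at E10.5 and between 0.222 and 0.266 CPM at the other 4 stages. E10.5 and E12.5 did not overlap (0.371 to 0.813 against 0.192 to 0.340 CPM), whereas E9.5 reached 0.432 CPM. The log2 fold change was 1.13 ± 0.52 for E10.5 minus E9.5 and -1.08 ± 0.46 for E12.5 minus E10.5. The first of these depends on E9.5 replicate 1, which had 1 count: it was 0.57 within the low set, which leaves this library out, and 4.15 within the high set, where it is the only E9.5 library. The ratio of Lefty2 to Lefty1 per kilobase went from 0.630 ± 0.214 (n = 4) at E10.5 to 0.200 ± 0.0302 (n = 4) at E12.5 and 0.115 ± 0.0511 (n = 4) at E16.5.

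**Figure D2:**
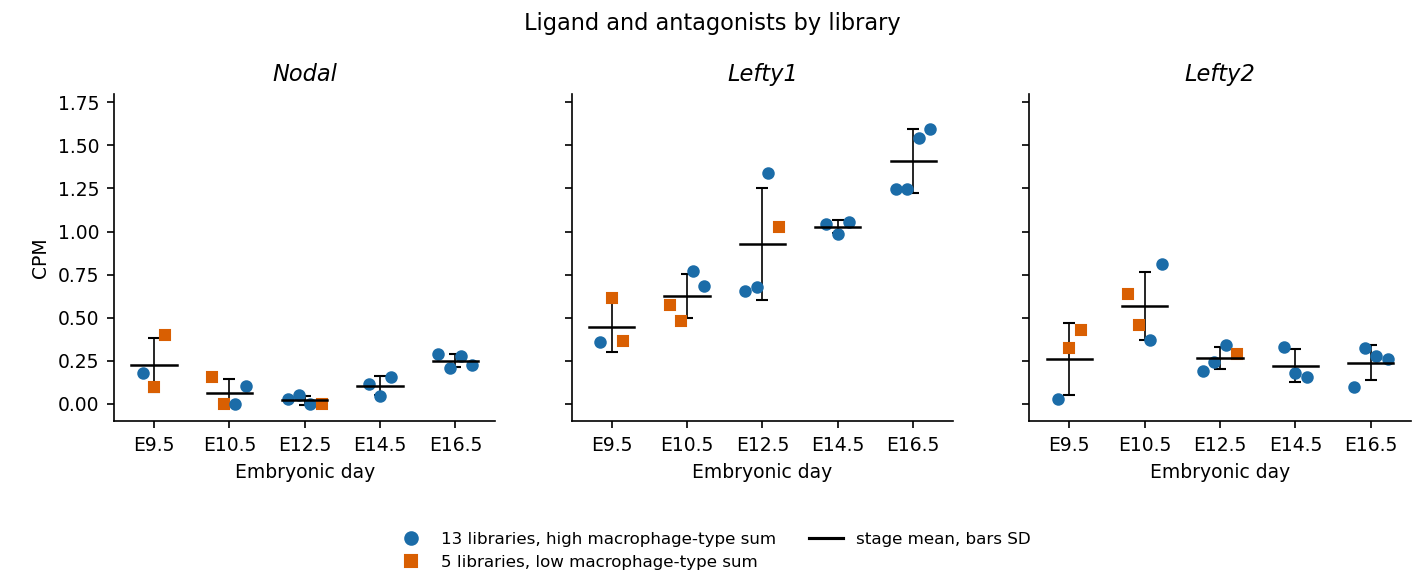
Level of Nodal, Lefty1 and Lefty2 in CPM (linear axis) in each library by embryonic day; lines are stage means, bars are SD, and circles and squares are the 13 libraries with a high and the 5 with a low sum of macrophage-type transcripts. Lefty1 goes from 0.448 CPM at E9.5 to 1.41 at E16.5, Lefty2 is highest at E10.5, and Nodal stays below 0.4 CPM.

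The type II receptors bind activins, Nodal and several growth differentiation factors and activate the type I receptor. Acvr2a stayed nearly level over all libraries. Its stage means lay between 30.8 ± 2.97 CPM (E9.5, n = 3) and 35.3 ± 5.35 CPM (E14.5, n = 3), single libraries lay between 28.6 and 41.4 CPM, and all neighbouring stages overlapped. E16.5 minus E9.5 was 0.07 on the log2 scale with a 95% interval of -0.12 to 0.27, and the changes between neighbouring stages lay between -0.12 and 0.17. E10.5 minus E9.5 was 0.26 within the low set and 0.13 within the high set. The opposite-strand gene Orc4 overlaps 7.84% of the exon length of Acvr2a.

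Acvr2b fell. Its level was 21.3, 42.2 and 45.5 CPM at E9.5 and 30.4, 30.8, 31.2 and 24.9 CPM at E10.5. It was 13.1, 20.1, 15.2 and 17.9 CPM at E12.5, 11.2, 12.6 and 12.8 CPM at E14.5, and 6.95, 8.39, 9.31 and 8.79 CPM at E16.5. From E10.5 on, each stage lay wholly below the one before it, and the mean went from 29.3 ± 2.98 (n = 4) to 8.36 ± 1.02 CPM (n = 4). The log2 fold changes were -0.82 ± 0.19 for E12.5 minus E10.5, -0.44 ± 0.20 for E14.5 minus E12.5 and -0.54 ± 0.21 for E16.5 minus E14.5.

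From E9.5 to E10.5 the sign of the Acvr2b change differed between the library sets, but the high set rests on 1 E9.5 library. At E10.5 the low-set libraries were at 30.4 and 30.8 CPM and the high-set ones at 31.2 and 24.9 CPM. With the library set as a term the change was -0.20. E10.5 minus E9.5 was -0.31 ± 0.20 over all libraries, -0.49 within the low set, -0.57 without E9.5 replicate 1, and 0.40 within the high set, whose only E9.5 library is replicate 1. E16.5 minus E9.5 was -2.12 ± 0.20 over all libraries, -1.34 within the high set and -1.83 with the library set as a term. E9.5 replicate 1 differed from replicates 2 and 3 in long transcripts: its log2 CPM minus their mean had a median of 0.25 over 771 genes with up to 1500 exonic bases, -0.01 over 4879 genes with 3000 to 6000 and -0.175 over 4197 longer genes. In the same measure Acvr2b, with 3928 exonic bases, stood at -1.04, Acvr2a at -0.081 and the very long titin gene Ttn at -1.29. The shorter members Tdgf1 (2622 exonic bases) and Foxh1 (1365) stood at -0.501 and -0.63. The median over 2438 genes with 1500 to 3000 exonic bases was 0.12. The part of transcript length or of the library set in the E9.5 values was not tested.

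Per kilobase of merged exon, the balance of the 2 receptors moved from Acvr2b to Acvr2a. The fall of the ratio does not depend on the gene lengths used, but the stage at which it crosses 1 does. In plain counts it was 0.719 to 1.475 at E9.5, 0.763 to 0.978 at E10.5 and 0.417 to 0.569 at E12.5. Per kilobase, the ratio of Acvr2b to Acvr2a was 1.04, 2.13 and 1.93 at E9.5 and 1.18, 1.22, 1.42 and 1.11 at E10.5, above 1 in all 7 libraries. It was 0.604, 0.823, 0.695 and 0.742 at E12.5, 0.392, 0.561 and 0.582 at E14.5, and 0.343, 0.365, 0.388 and 0.396 at E16.5, below 1 in all 11. The stage mean went from 1.70 ± 0.581 (n = 3) to 0.373 ± 0.0239 (n = 4). E9.5 and E10.5 overlapped in this ratio, as did E14.5 with E16.5, while E10.5, E12.5 and E14.5 did not overlap each other.

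**Figure D3:**
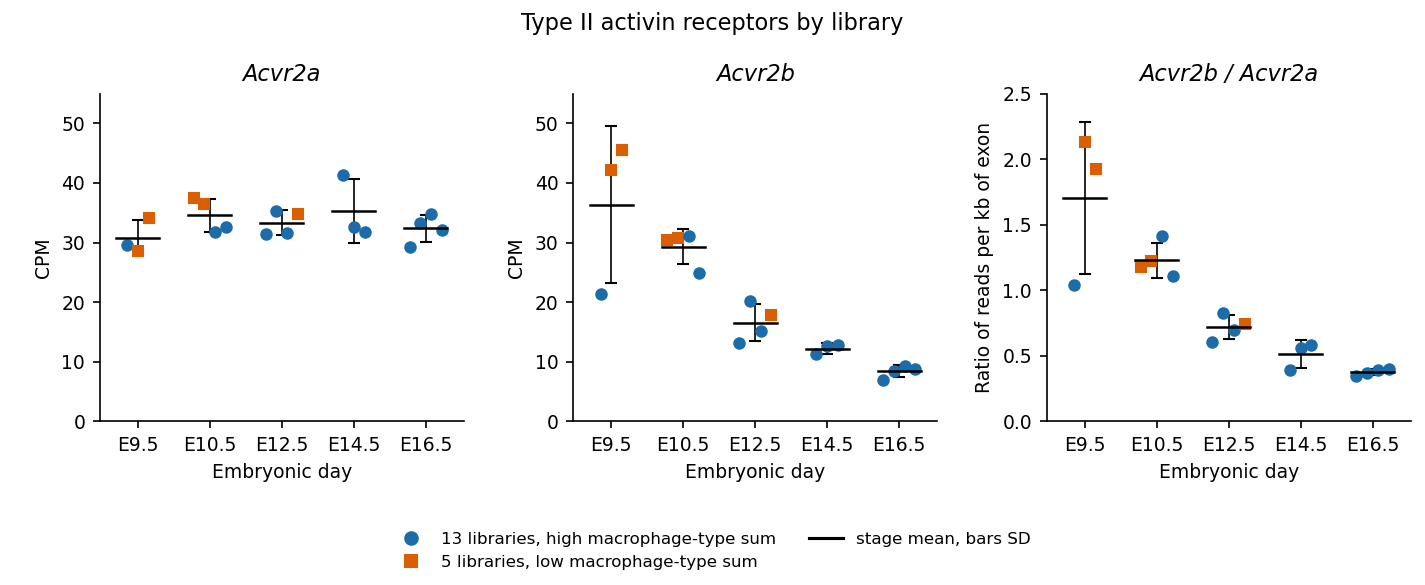
Level of Acvr2a and Acvr2b in CPM (linear axes from 0) and the ratio of Acvr2b to Acvr2a in reads per kilobase of exon, in each library by embryonic day; lines are stage means, bars are SD, and circles and squares are the high and low library sets. Acvr2a is level near 33 CPM, Acvr2b falls from E10.5 on, and E9.5 replicate 1 lies apart from the other E9.5 libraries in Acvr2b.

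Ordered by RPKM, the 7 genes exchanged places over the series. At E9.5 Foxh1 led with a mean of 23.3 RPKM, followed by Tdgf1 (12.01), Acvr2b (9.25) and Acvr2a (5.42). Neighbours among these 4 overlapped in range over the 3 libraries, and all 4 lay above Lefty1 (0.255), Nodal (0.108) and Lefty2 (0.100), of which the last pair overlapped. At E10.5 the order was Acvr2b (7.46), Acvr2a (6.08), Foxh1 (3.11), Tdgf1 (1.07), Lefty1 (0.356), Lefty2 (0.218) and Nodal (0.0310). The receptors overlapped there, as did the Lefty genes. From E12.5 on Acvr2a led (5.85, 6.20 and 5.69 RPKM), then Acvr2b (4.22, 3.11 and 2.13) and Lefty1 (0.526, 0.585 and 0.801), and these 3 did not overlap each other. The other 4 genes were each at or below 0.12 RPKM at E12.5, E14.5 and E16.5, and the neighbours among them overlapped except Lefty2 with Tdgf1 at E12.5.

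**Figure D4:**
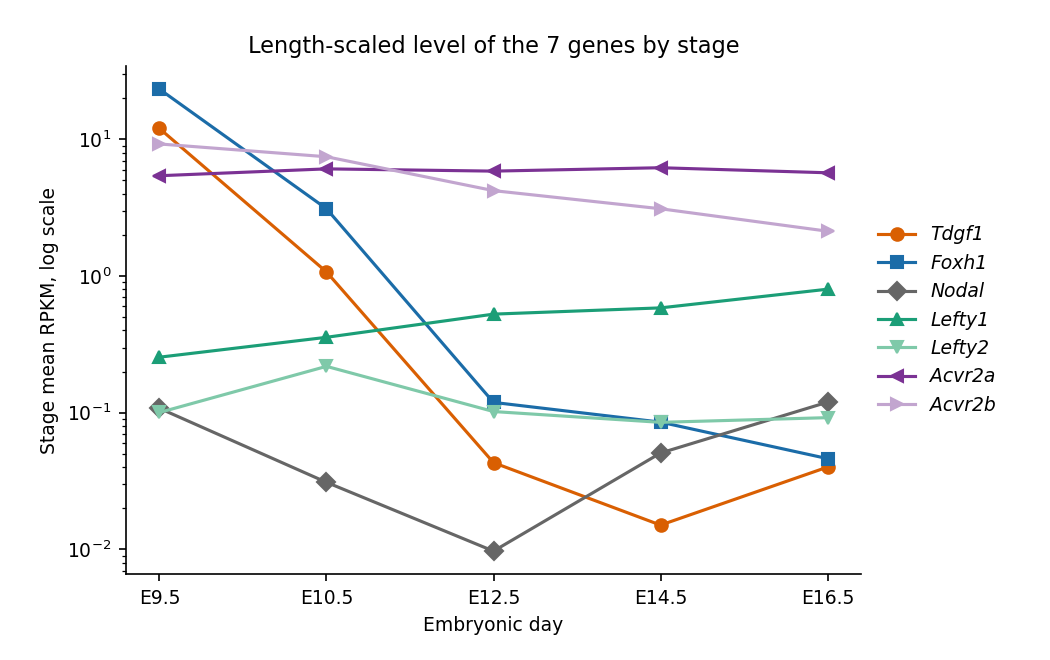
Stage mean of each of the 7 genes in RPKM (log axis) by embryonic day, 1 line per gene. Foxh1 and Tdgf1 lead or share the lead at E9.5 and are among the lowest at E16.5, where Acvr2a is at 5.69, Acvr2b at 2.13 and Lefty1 at 0.801 RPKM.

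In the edgeR fit over 18885 genes, 6 of the 7 entered the test. From E9.5 to E10.5, 0 passed higher and 2 (Foxh1 and Tdgf1) lower at an adjusted p under 0.05, beside 18.2% of all genes tested, 7.62% of them lower. From E10.5 to E12.5, 3 passed lower (Acvr2b, Foxh1 and Tdgf1) beside 38.0% of all genes, 18.1% lower. From E12.5 to E14.5 and from E14.5 to E16.5 0 of the 6 passed by edgeR, beside 14.8% (6.29% higher and 8.55% lower) and 18.9% (10.1% higher and 8.74% lower) of all genes. By DESeq2, Acvr2b passed in the second of these, beside 4090 of 18885 genes. Over the whole series, E16.5 against E9.5, Lefty1 passed higher and Acvr2b, Foxh1 and Tdgf1 lower, beside 64.9% of all genes (32.1% higher and 32.8% lower). As the genes were chosen on these changes, nothing is read from these counts.

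The genes most like each member over the 18 libraries were taken from 11876 protein-coding genes by Pearson's r of log2 CPM with a prior count of 2, as a description in which all libraries are shared and the stages set most of the spread. Foxh1 and Tdgf1 had r = 0.96 with each other. Closest to Tdgf1 were Fam136a (r = 0.98), the simple-epithelial keratin gene Krt8 (0.98), Ubqln1, Prmt8 and Col22a1. Krt8 went from 119.6 ± 29.4 CPM at E9.5 to 64.0 ± 5.81 at E10.5 and 12.97 ± 2.70 at E16.5. Closest to Foxh1 were the adhesion gene Cadm1 (r = 0.99), Cars, the nucleolar methyltransferase gene Fbl, the cell-cycle factor gene Mybl2 and, as for Tdgf1, Col22a1. Cadm1 went from 106.9 ± 8.15 CPM at E9.5 to 19.7 ± 2.30 at E16.5, a far smaller change than that of Foxh1.

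Acvr2b was most like Fancm (r = 0.98), Rad54l2, Ticrr, Cacna1h and Polq. FANCM, TICRR and POLQ act in DNA repair or replication. Fancm went from 49.5 ± 13.1 CPM at E9.5 to 46.3 ± 5.44 at E10.5 and 18.6 ± 2.87 at E16.5. Lefty1 was most like Tnfaip8l1 (r = 0.93), the stress-response gene Ddit4, C77080, Abhd8 and Josd1, and Ddit4 went from 35.2 ± 5.79 CPM at E9.5 to 97.7 ± 9.66 at E16.5. For Lefty2 the closest was Mrs2 (r = 0.84) and for Acvr2a it was Zbtb41 (r = 0.84). Between Acvr2a and Acvr2b r was 0.03.

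Around the 7 genes, 71 other genes of the pathway and of left-right patterning were followed in 6 lists, and 61 entered the test. From E9.5 to E10.5, 12 rose and 8 fell, beside 18.2% of all genes called. From E10.5 to E12.5, 19 rose and 13 fell, beside 38.0%. From E12.5 to E14.5, 2 rose and 14 fell, beside 14.8%, and from E14.5 to E16.5, 4 rose and 19 fell, beside 18.9%. E16.5 against E9.5, 20 rose, 27 fell and 14 did not pass, beside 64.9% of all genes called. The median log2 fold change of the 61 was 0.11, 0.08, -0.08, -0.14 and -0.12 in these 5 comparisons, beside 0.00, 0.01, 0.00, -0.02 and -0.01 over all genes tested. The count from E9.5 to E10.5 depended on the libraries used, as did that of all genes. It was 20 over all libraries, beside 3446 of 18885 genes. Without E9.5 replicate 3 it was 13, beside 2260 of 19289, and within the low set 31, beside 6457 of 18524. Within the high set, with 1 library at E9.5, the median log2 fold change of the list was 0.16. From E14.5 to E16.5 it was 23, beside 3562 of 18885 genes, and 12 without E14.5 replicate 1, beside 2058 of 19288. Scaling by library totals alone gave 1 higher and 27 lower, beside 1222 and 3775 of all genes, whose median was -0.15.

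Among 9 Nodal-related ligands and convertases, 7 were tested, and 3 rose and 2 fell between E9.5 and E16.5, with a median log2 fold change of 0.22, beside 64.9% of all genes called (32.1% higher and 32.8% lower). Inhba, the activin A subunit gene, rose from 0.941 to 9.57 CPM (log2 fold change 3.33 ± 0.26, adjusted p = 9.74e-10), of which 1.55 ± 0.25 lay between E9.5 and E10.5 (adjusted p = 0.000217, but 0.93 and not past the test within the high set). Inhbb, the activin B subunit gene, rose from 1.25 to 5.61 CPM (2.16 ± 0.19, adjusted p = 7.74e-09). Gdf11, which signals through the same type II receptors, fell from 45.3 to 15.02 CPM (-1.59 ± 0.11, adjusted p = 1.94e-10). Pcsk6, the PACE4 convertase that cleaves the Nodal precursor, rose from 21.9 CPM at E9.5 to 40.3 at E10.5 (0.88 ± 0.12, adjusted p = 2.22e-05) and was at 15.02 CPM at E16.5. Gdf3 had 0 to 12 counts per library. Gdf1, the ligand that pairs with Nodal, had 0 counts in all libraries, but all of its exonic bases also belong to the same-strand gene Cers1, so its level could not be measured.

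Among the 7 co-receptors, type I receptors and other type II receptors, 2 rose and 3 fell between E9.5 and E16.5, again beside 64.9% of all genes, with a median log2 fold change of 0.06. Acvr1b, the type I receptor for Nodal, stayed level at 64.0 CPM at E9.5 and 66.6 at E16.5 (log2 fold change 0.06 ± 0.09, adjusted p = 0.594). Acvr1c, the alternative type I receptor ALK7, rose from 1.29 CPM at E9.5 to 4.14 at E10.5 (1.68 ± 0.22, adjusted p = 2.17e-05) and to 8.81 at E12.5, and fell to 3.10 at E16.5. Per kilobase it reached at most 0.0654 of Acvr1b as a stage mean, at E12.5. The TGF-beta receptor genes went opposite ways: Tgfbr2 rose from 22.4 to 88.6 CPM (1.98 ± 0.09, adjusted p = 7.81e-13), and Tgfbr1 fell from 105.3 to 55.7 CPM (-0.92 ± 0.10, adjusted p = 1.42e-07). Cfc1, described above, also fell. Acvr1, named to complete the count, passed as lower (41.3 to 36.3 CPM), a call lost under RLE scaling, by DESeq2, without the filter, with the library set as a term and within the high set.

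Of 9 extracellular and membrane antagonists, 8 were tested, and 3 rose and 4 fell between E9.5 and E16.5, beside 64.9% of all genes, with a median of -0.50. Fstl3, a follistatin-like binder of activin, rose from 2.501 to 14.7 CPM (2.56 ± 0.20, adjusted p = 8.24e-10), although the opposite-strand gene Prss57 covers 47.32% of its exons. Dand5, the Cerberus-family antagonist that opposes Nodal at the node, was at 3.97 CPM at E9.5 and 6.30 at E16.5 (0.66 ± 0.15, adjusted p = 0.000588). Within the high set this change was 0.49 and did not pass. Bambi, a receptor decoy, fell from 111.5 to 50.1 CPM (-1.15 ± 0.10, adjusted p = 7.05e-09), and Tmeff1, a membrane inhibitor of CRIPTO signalling, fell from 95.4 to 48.7 CPM (-0.97 ± 0.08, adjusted p = 3.82e-09). Ltbp1, which holds latent TGF-beta in the matrix, rose from 118.1 CPM at E9.5 to 182.0 at E10.5 (0.62 ± 0.11, adjusted p = 0.00068) and was at 76.9 CPM at E16.5.

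The SMAD genes, which carry the signal to the nucleus, had modest changes. Of 13 SMADs and nuclear partners or repressors, 12 were tested, and 4 rose and 6 fell between E9.5 and E16.5, beside 64.9% of all genes, with a median of -0.38. Smad2 fell from 69.5 to 49.4 CPM (-0.49 ± 0.07, adjusted p = 2.87e-06), Smad3 from 80.4 to 54.5 CPM (-0.56 ± 0.09, adjusted p = 3.21e-05) and Smad4 from 121.0 to 79.4 CPM (-0.61 ± 0.09, adjusted p = 4.07e-06). Smad7, which blocks the receptors, rose from 36.4 to 52.1 CPM (0.51 ± 0.10, adjusted p = 0.000219). The ratio of Smad3 to Smad2 per kilobase had stage means of 1.57 to 1.83. Pmepa1, a feedback inhibitor induced by TGF-beta signals, had the highest rise of the list, from 7.45 to 52.5 CPM (2.81 ± 0.14, adjusted p = 1.17e-12). Skil, a SMAD repressor, was at 52.9, 69.7 and 40.7 CPM at E9.5, E10.5 and E16.5.

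Of 11 left-side targets and heart-looping genes, 9 were tested, and 0 rose and 5 fell between E9.5 and E10.5, beside 7.62% of all genes called lower. Without E9.5 replicate 3, 1 gene (Nkx2-5) passed as lower, beside 804 of all 19289 genes tested in that fit. Within the high set the median log2 fold change of the list was -0.18, against -0.27 over all libraries. Between E9.5 and E16.5, 2 rose and 6 fell, beside 64.9% of all genes, with a median of -0.63. Nkx2-5, the early cardiac factor, went from 358.8 to 217.8 CPM between E9.5 and E10.5 (-0.72 ± 0.15, adjusted p = 0.00271, and -0.35 within the high set, where it did not pass) and was at 308.3 CPM at E16.5. Hand1, a left ventricular and looping factor, fell from 81.2 CPM at E9.5 to 8.34 at E16.5 (-3.28 ± 0.13, adjusted p = 1.37e-13), with a change at E10.5 (-0.38 ± 0.12, adjusted p = 0.0398) that most alternatives lost. Ccnd2, a cyclin gene, fell from 848.8 to 311.3 CPM (-1.45 ± 0.06, adjusted p = 1.12e-13), and Prrx1, a mesenchymal and looping factor, went from 14.1 CPM at E9.5 to 9.87 at E10.5 (-0.52 ± 0.14, adjusted p = 0.0131, lost within the high set and without E9.5 replicate 3) and rose to 42.5 CPM at E16.5 (1.59 ± 0.14 against E9.5, adjusted p = 7.43e-09).

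Of 22 node and cilia genes, 18 were tested, and 6 rose and 6 fell between E9.5 and E16.5, a share near the 64.9% of all genes called, with a median of 0.05. Anks6, a ciliary scaffold gene, rose from 3.15 to 9.07 CPM (1.53 ± 0.13, adjusted p = 3.71e-09), and Pkd2, the node's calcium channel gene, rose from 42.1 to 72.4 CPM (0.78 ± 0.09, adjusted p = 1.70e-07). Ccdc40, needed for motile cilia, fell from 5.41 to 1.36 CPM (-1.99 ± 0.16, adjusted p = 2.35e-09).

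**Figure D5:**
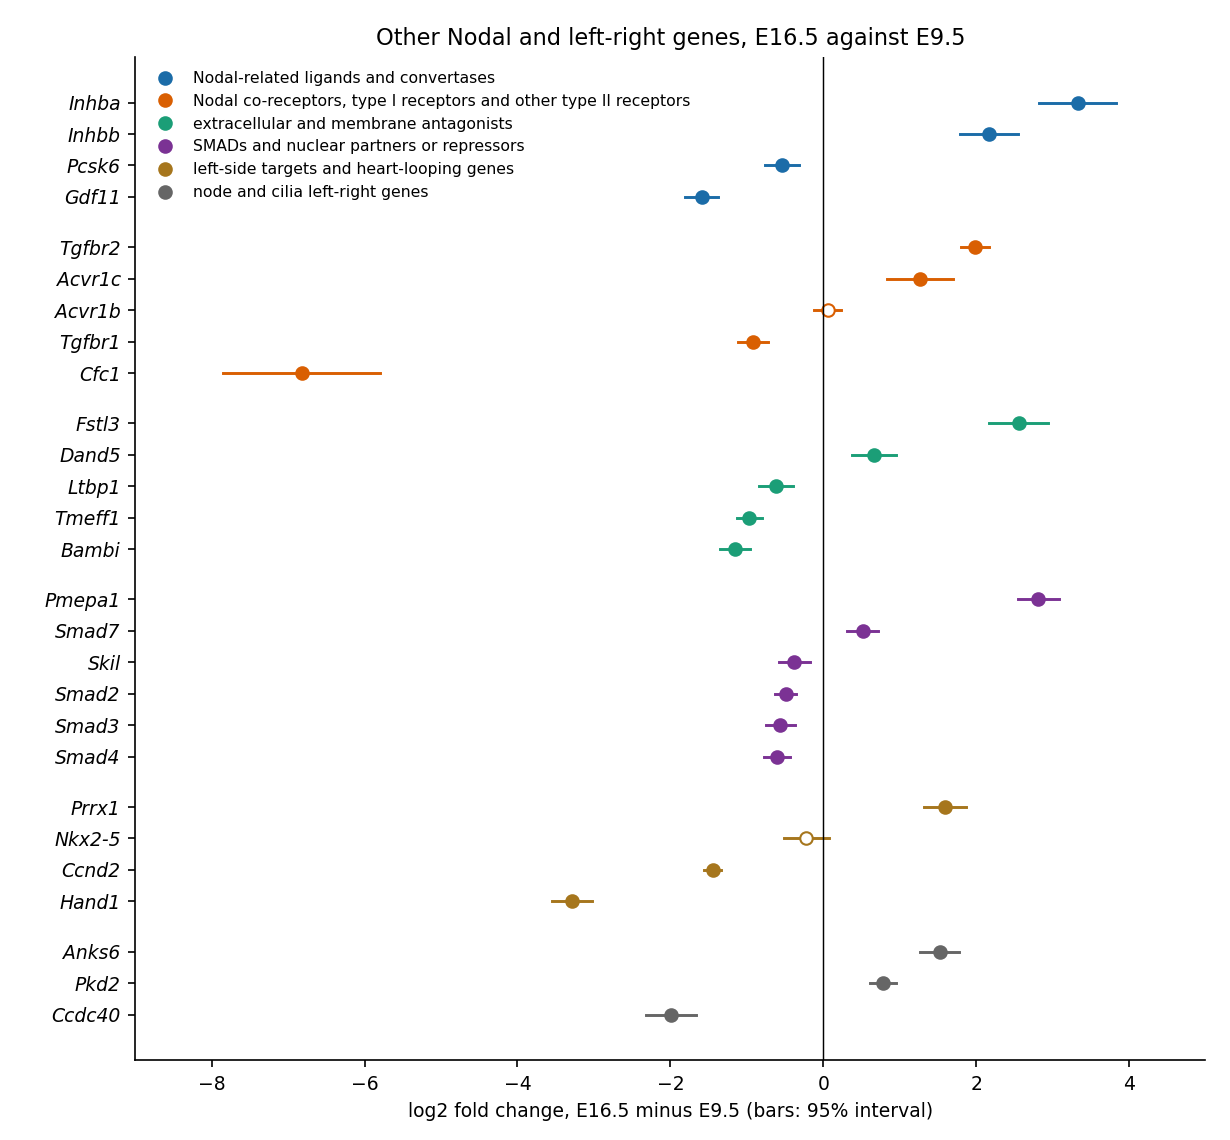
Log2 fold change, E16.5 minus E9.5, of the other Nodal and left-right genes named here, in 6 colours for the 6 lists; points are edgeR estimates, bars are 95% intervals, and open points did not pass the test. Cfc1 is lowest at -6.82 and Inhba highest at 3.33, while Acvr1b and Nkx2-5 lie near 0.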

How the data were processed

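RNA-seq of 18 libraries of wild-type embryonic mouse hearts was used. The authors deposited whole-number read counts per gene and library, not normalized, keyed by Ensembl identifier. Per the submitters' processing notes, the tools were STAR 2.5.2b, Trimmomatic 0.36, Subread 1.5.2 and featureCounts, with the builds mm10 and GRCm38. Which strand setting and which annotation the counting used is not stated in these sources. Of 49315 identifiers, 48970 had a symbol, and rows without one held 0.0238 to 0.0388% of counts. Samples were grouped by the age in the labels.

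Genes were filtered by stage (filterByExpr), which left 18885, scaled by TMM and tested with edgeR 4.0.16 (R 4.3.3): 1 robust quasi-likelihood model of all 18 libraries with stage as its only term, Benjamini-Hochberg adjustment over all genes tested and a threshold of 0.05. The script was tested on simulated counts. CPM used TMM-scaled sizes, marker sums used plain totals, and RPKM used merged exons of GENCODE M21. Promoters came from RefSeq (4 of the 7 genes matched). Chi-square per degree of freedom between libraries of a stage was 6.06 to 79.8, so none was a duplicate.

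The 7 genes and all lists were chosen with earlier results of these data known. Named beside them are Cfc1, Gdf1, Gdf3, Gdf11, Acvr1b, Acvr1c, Smad2, Smad3, Smad4, Smad7 and Dand5, and of each list the 3 genes with the smallest p among those called in E16.5 against E9.5 and the 2 in E10.5 against E9.5. Alternatives were RLE scaling, library totals, no filter, DESeq2 1.42.0, limma-voom (limma 3.58.1), only the 2 stages compared, a replicate block, the library set as a term, each set alone, and leaving out each library. A gene that this rule names is not reported here.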

Additional observations from a re-analysis of the deposited data

Results flagged for a closer look

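In 108 groups of 4 libraries, for the 7 genes and the other genes named, a library stood apart from the other 3 by a gap past the 95% critical value of Dixon's test in 7 cases. Chance flags about 1 in 20 such groups. Among the 7 genes it was Acvr2b at E10.5, where replicate 4 had 24.9 CPM (948 counts) and the others 30.4 to 31.2. The same library had the highest Gdf3 of its stage (0.210 CPM, from 8 counts, against 0.0481 to 0.0663) and the lowest Hand1 (55.8 CPM against 64.5 to 64.9). E12.5 replicate 4, the only low-set library of its stage, had the highest Tgfbr2 (65.3 CPM against 53.8 to 54.7) and the highest Acvr1b (69.4 CPM against 61.2 to 62.4). E12.5 replicate 3 had the highest Smad7 (57.95 CPM against 44.2 to 46.5), and E16.5 replicate 3 had the highest Tgfbr1 (62.2 CPM against 52.9 to 54.4).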

How the results depend on the processing

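No value called over all libraries changed sign. Acvr2b from E9.5 to E10.5, which was not called over all libraries, was -0.49 within the low set and 0.40 within the high set, which has 1 library at E9.5. Of the values of the 7 genes under the alternatives, 480 kept their side of the threshold, 11 passed it newly and 2 no longer passed it; of those of the other named genes, 646 kept it and 42 did not. From E9.5 to E10.5 the low set alone called 6457 genes, 31 of the other pathway genes and 4 of the 7 (Acvr2a higher and Acvr2b lower in addition), the high set 1215 and 6 (0 lower), against 3446, 20 and 2 over all libraries; leaving out 1 library gave 2260 (without E9.5 replicate 3) to 3839 genes and 13 to 19 other pathway genes. From E10.5 to E12.5 the low set, with 1 library at E12.5, gave -6.15 for Tdgf1 and -4.64 for Foxh1, which no longer passed there. From E14.5 to E16.5, 1 of the 7 (Acvr2b) passed under 6 alternatives against 0: library totals (-0.67), replicate block (-0.55), library set as a term (-0.54), only the 2 stages (-0.55), the high set (-0.54) and DESeq2 (-0.53). In that order these alternatives called 4997, 3105, 4878, 3946, 4511 and 4090 of all genes, against 3562. They tested 18885 genes each, except 17601 with only the 2 stages and 19907 in the high set. Leaving out 1 library gave 1771 (without E14.5 replicate 3) to 2585 genes from E12.5 to E14.5, against 2801, and 2058 (without E14.5 replicate 1) to 3849 from E14.5 to E16.5, against 3562, with 12 to 24 other pathway genes against 23; 2225 were called without E14.5 replicate 2. Scaling by library totals moved the split of higher and lower genes to 1701 and 1021 (from 1187 and 1614) in the first and to 1222 and 3775 (from 1911 and 1651) in the second of these comparisons. The cause of these shifts was not tested. Same-numbered replicates of E9.5 and E10.5 correlated at -0.72, 0.57 and -0.54 in their deviations from the stage mean. Replicates 1 and 3 changed library set between these stages and replicate 2 did not, so these values cannot show whether the numbers stand for pairs. The replicate block gave 3287, 7059, 2415, 3105 and 11927 genes in the 5 comparisons. Depth limits Nodal, Lefty2 and the late values of Tdgf1 and Foxh1, where a library held 0 to 31 counts.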

Other observations

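Mstn and Fst, of the lists of ligands and antagonists, were singled out after their values were seen, since both were highest at E12.5. This is not particular to them: Inhba (12.4 CPM), Fstl1 (1036) and Ltbp1 (206.7) of the same lists also had their highest stage mean at E12.5. Mstn, the myostatin gene, whose product binds the ACVR2B receptor, rose from 0.431 CPM at E9.5 to 0.998 at E10.5 and 13.1 at E12.5 (log2 fold change 3.70 ± 0.24 for E12.5 minus E10.5, adjusted p = 1.05e-09 by edgeR) and fell to 4.08 at E14.5 and 1.06 at E16.5 (-1.67 ± 0.24, adjusted p = 7.88e-05, and -1.95 ± 0.25, adjusted p = 2.02e-05). Fst, the follistatin gene, whose product binds activins and myostatin, rose from 4.84 CPM at E10.5 to 8.36 at E12.5 (0.79 ± 0.16, adjusted p = 0.000822) and fell to 2.70 CPM at E16.5 (-1.01 ± 0.18 against E14.5, adjusted p = 0.000566).

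Drap1, a repressor that binds FOXH1, went from 126.2 CPM at E9.5 to 106.3 at E10.5, then reached 156.5 at E12.5 and 268.0 at E16.5, which was higher than at E9.5 (1.09 ± 0.19, adjusted p = 7.16e-05 by edgeR). It was also singled out after its values were seen.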
